A study of Mus musculus with 12 samples.

Results

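The interaction term asks whether the transcriptional effect of deleting Mcl1 in hepatocytes differed between livers labelled as having and as lacking Sting1. It is the change from Sting1 KO to Mcl1 Sting1 DKO livers minus the change from WT to Mcl1 KO livers, computed on the log2 scale for each gene. A term below 0 means that the change on the Sting1-null background was lower than on the intact one, and a term above 0 means that it was higher. All 12 livers entered the term, and 15070 of the 40551 counted genes had enough counts to be tested.

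The libraries were total RNA-seq of whole mouse liver, with 3 livers each of WT, Mcl1 KO, Sting1 KO, and Mcl1 Sting1 DKO mice, the last abbreviated below as DKO. In the Mcl1 KO and DKO mice, floxed Mcl1 was removed by a Cre recombinase under the albumin promoter, so that the deletion was directed to hepatocytes. Sting1 was deleted in the whole animal in the Sting1 KO and DKO mice. The labels give neither age nor sex. WT and Mcl1 KO livers for RNA came from 2-month-old mice, and the age of the Sting1 KO and DKO mice used for RNA was not given in the sources used here. Nothing in the labels says that replicate numbers link mice of different genotypes. The 3 libraries of a genotype are separate samples by their labels, and the p-values measure the spread between them. In whole-liver RNA, fewer cells of a type and less RNA per cell cannot be told apart.

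MCL1 keeps cells alive by binding the pore-forming proteins BAK and BAX, and hepatocytes without it die at a raised rate and are replaced by division. cGAS senses DNA in the cytosol and makes a cyclic dinucleotide that activates STING, encoded by Sting1. STING then recruits the kinase TBK1, which activates IRF3 and type I interferon, and also feeds into NF-kB and the chemokines that attract myeloid cells and lymphocytes. In the liver, STING is known mainly from macrophages and other nonparenchymal cells.

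Mcl1 lay at 90.2, 102, and 104 CPM in the WT livers, at 27.9, 33.96, and 24.98 in the Mcl1 KO livers, at 78.3, 90.1, and 76.97 in the Sting1 KO livers, and at 18.1, 22.9, and 25.97 in the DKO livers. The Mcl1 KO and DKO livers lay below all livers with intact Mcl1, and the interaction term of Mcl1 was -0.10 ± 0.23 (log2, SE, edgeR adjusted p = 0.853). Sting1 lay at 2.53, 2.43, and 2.11 CPM in the WT livers, at 4.59, 5.997, and 3.67 in the Mcl1 KO livers, at 1.16, 1.73, and 2.702 in the Sting1 KO livers, and at 1.904, 2.53, and 2.33 in the DKO livers. Sting1 RNA was highest in the Mcl1 KO livers, and the Sting1 KO and WT livers overlapped, so that whole-gene counts did not show the Sting1 deletion and the groups are used as labelled. The interaction term of Sting1 was -0.74 ± 0.41 (log2, SE, edgeR adjusted p = 0.426). Cgas, the DNA sensor itself, lay at 0.237, 0.208, and 0.561 CPM in the WT livers, at 1.03, 0.765, and 0.664 in the Mcl1 KO livers, at 0.3201, 0.6103, and 0.483 in the Sting1 KO livers, and at 0.401, 0.731, and 0.848 in the DKO livers. Its term was -0.82 ± 0.62 (log2, SE, edgeR adjusted p = 0.549), and the DKO livers overlapped both the Mcl1 KO and the Sting1 KO livers.

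The libraries held from 28826367 to 45266387 counts on genes, and the hepatocyte marker Alb lay between 59840 and 120400 CPM, the count scaled to library size. Y-linked genes were expressed in 3 livers only, which were WT replicates 2 and 3 and DKO replicate 1, so that males were unevenly spread over the term. Small structured RNAs (snRNA, snoRNA, scaRNA, and other short noncoding RNA by their annotated type) took 0.172 to 0.369% of the counts in WT livers, 0.506 to 0.897% in Sting1 KO livers, and 0.431 to 0.532% in DKO livers. In the Mcl1 KO livers the share was 0.283% in replicate 1, 2.37% in replicate 2, and 1.36% in replicate 3. Mcl1 KO replicate 3 also held transcripts of pancreas (1.37% of its counts, at most 0.00305% elsewhere) and of skeletal muscle (0.278%, at most 0.00377% elsewhere). The median SD of log2 CPM within a group was 0.32 in Mcl1 KO, 0.21 in WT, 0.19 in Sting1 KO, and 0.22 in DKO livers. Apart from the fits given below with a covariate or without libraries, the part of these features in the results was not tested. Small structured RNA shares differed between genotypes, so a fit with that covariate can also remove part of the term itself.

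**Figure D1:**
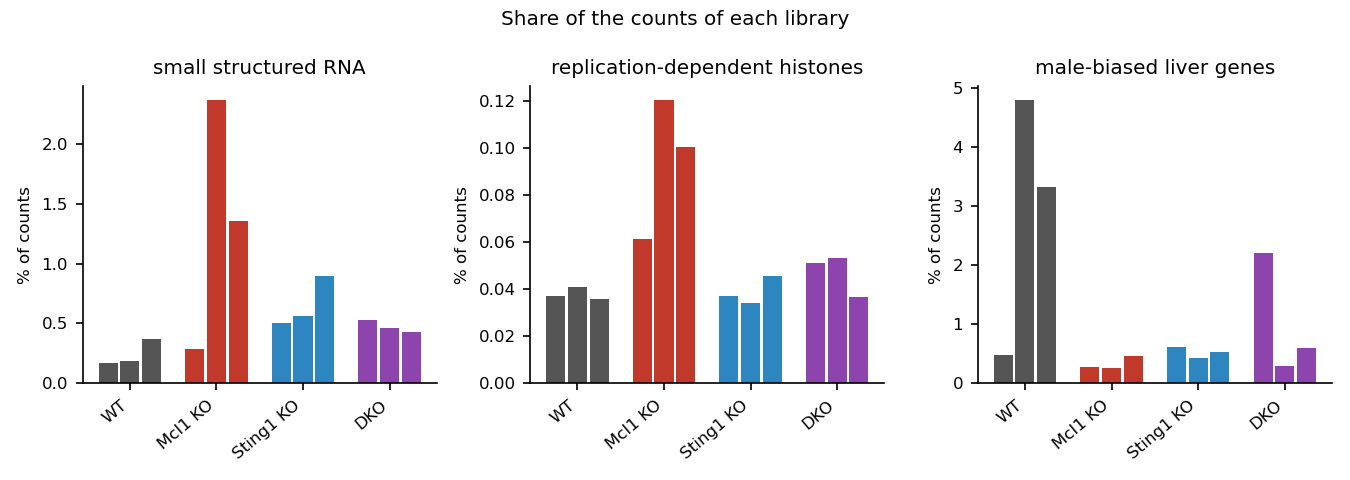
Share of the counts of each library (percent, y axis) on small structured RNAs by annotated type, replication-dependent histone genes, and male-biased liver genes; each bar is 1 liver, in replicate order within its genotype. Mcl1 KO replicates 2 and 3 stand above all other livers for small structured RNA (2.37 and 1.36%), and WT replicates 2 and 3 and DKO replicate 1 for male-biased genes (4.79, 3.31, and 2.20%).

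No single gene passed the test of the interaction. By edgeR's quasi-likelihood test, 0 of 15070 genes (0%) had an adjusted p under 0.05, and the lowest adjusted p was 0.216. At an unadjusted p under 0.05, 1094 genes (7.26% of those tested) had a term above 0 and 1071 (7.11%) a term below 0. DESeq2 on the same counts called 172 of 15023 genes (1.14%), 105 above 0 (0.699%) and 67 below (0.446%). limma voom with a weight for each library called 540 genes, 351 above 0 and 189 below, and 116 genes were in both of these sets (67.4% of the DESeq2 set and 21.5% of the voom set).

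The count rested on single libraries. Without Mcl1 KO replicate 1, the liver of that genotype with the lowest small structured RNA share, edgeR called 1574 genes, 926 above 0 (6.03% of those tested) and 648 below (4.22%). Without WT replicate 1, the only WT liver without Y-linked expression, it called 88 genes, and without Sting1 KO replicate 3 it called 1. With any of the other 9 libraries left out it called 0. Without the 3 male livers, which left a single WT liver, 0 of 16222 genes were called, 353 (2.18%) had an unadjusted p under 0.05 with a term above 0, and 513 (3.16%) with a term below 0. The lone WT liver is there assumed to vary like the other groups. The filter on counts was rerun in that fit, so more genes were tested and some gene lists below hold added members. Such members can enter for high counts in few livers.

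**Figure D2:**
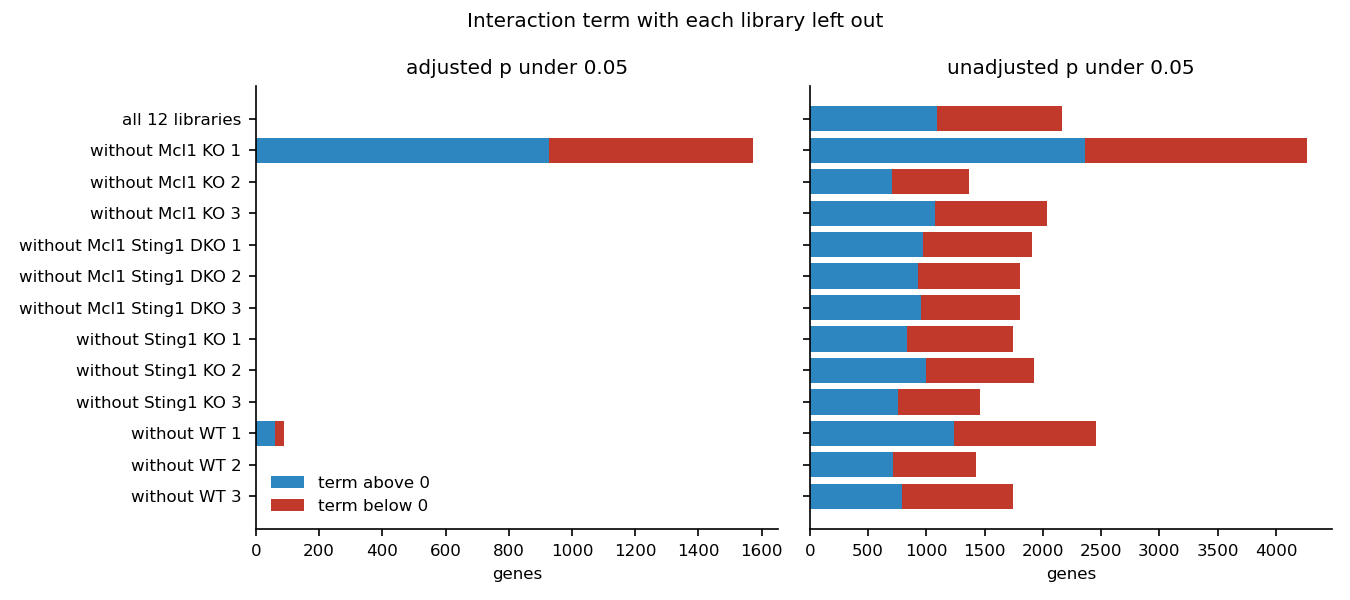
Number of genes (x axis) with an adjusted (left) or unadjusted (right) edgeR p under 0.05 for the interaction term, with all 12 libraries and with each library left out in turn (y axis); colors split terms above and below 0. Leaving out Mcl1 KO replicate 1 gives 1574 calls, WT replicate 1 gives 88, and Sting1 KO replicate 3 gives 1, against 0 in the other fits.

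Across all genes, the change that went with the Mcl1 deletion had a smaller median size on the Sting1-null background. The median absolute log2 change was 0.38 from WT to Mcl1 KO and 0.19 from Sting1 KO to DKO, a ratio of 0.51, and the ratio stayed between 0.42 and 0.59 when each library was left out. It was 0.48 without the 3 male livers and 0.60 with the small structured RNA share as a covariate. The spread within the Mcl1 KO livers was also the largest of the 4 genotypes, and its part in the ratio was not tested. The pair of contrasts share no library. Their changes had a Spearman correlation of 0.42 across the 15070 genes, which are not independent replicates.

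Genes called in 1 of the contrasts were chosen for a large change in it, so their values on the other background are given as a description. From WT to Mcl1 KO, 3050 genes (20.2%) were called, and from Sting1 KO to DKO 121 genes (0.803%). Both counts rested on single libraries. The first was 5232 without Mcl1 KO replicate 1, 1238 without Mcl1 KO replicate 2, and 1233 and 1596 without WT replicates 2 and 3. The second was 1 to 3 without any Sting1 KO liver, 2 without DKO replicate 1 or replicate 2, and 249 without DKO replicate 3, and it was 65 without Mcl1 KO replicate 2 and 52 and 59 without WT replicates 2 and 3. Without the 3 male livers the counts were 4 and 0. Of the 3050, 2555 (83.8%) had a log2 change in the same direction on the null background and 2957 (97.0%) had a smaller change there in that direction, with a median of 0.28 against 0.99 on the intact background. Chosen on the null background instead, 120 of the 121 genes (99.2%) had the same direction on the intact one, and 44 (36.4%) were smaller there, with medians of 2.53 on the intact and 2.42 on the null background. Of the 121, 115 were called in both contrasts.

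**Figure D3:**
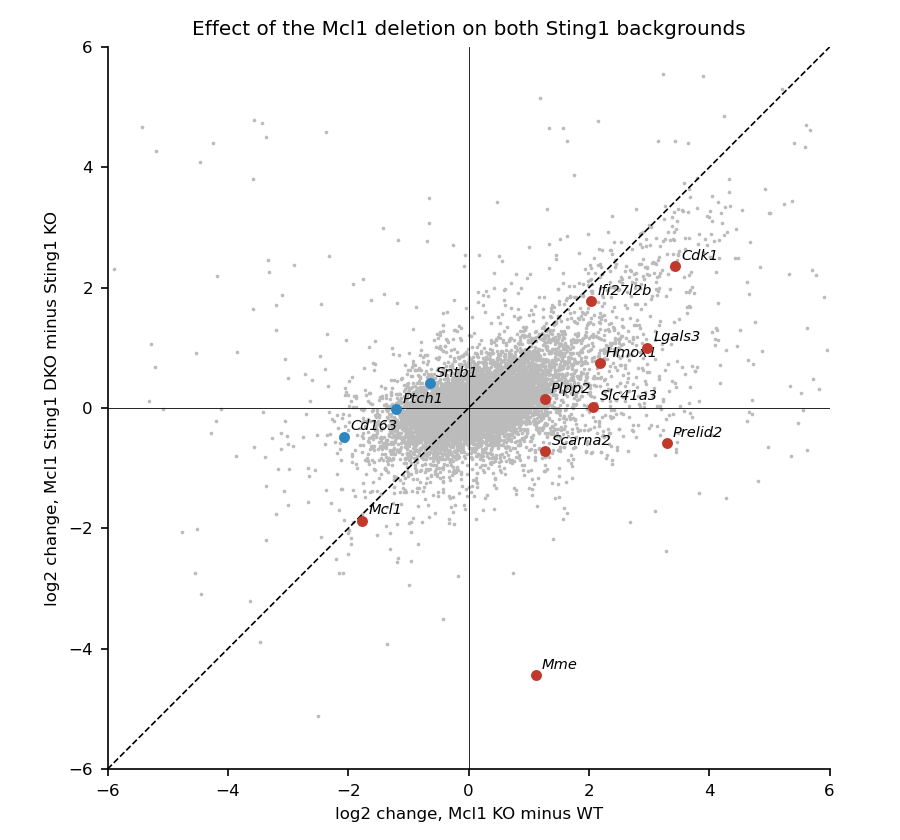
Log2 change with the Mcl1 deletion for each tested gene on the intact (x axis) and on the Sting1-null background (y axis); the dashed line marks equal change, and 15026 of the 15070 genes lie inside the axes. Named genes with a term below 0 are red and those above 0 are blue; Mcl1 and Ifi27l2b lie near the line, while Prelid2, Slc41a3, and Plpp2 lie right of 1 on the x axis and near or below 0 on the y axis.

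Among genes of at least 1 CPM on average, the 10 with the lowest unadjusted p and a term above 0 were Ptch1, Sntb1, Prkar2a, Rnf123, Zfand4, Plcb1, Tmem19, Larp1b, Mup16, and Zcchc2. Each of the 10 lay lower in every Mcl1 KO liver than in every WT liver, and lower in every Mcl1 KO liver than in every DKO liver, a pattern that 6.16% of all tested genes had. For all of them the edgeR adjusted p of the term was 0.216, and DESeq2 gave adjusted p-values from 0.000754 for Sntb1 to 0.00507 for Zcchc2. They were picked for their p, so these values describe them and do not support the term.

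Ptch1, the receptor that binds Hedgehog ligands (chromosome 13, 63656142 to 63721412, GRCm39), lay at 25.9, 39.5, and 32.2 CPM in the WT livers, at 15.3, 12.9, and 14.2 in the Mcl1 KO livers, at 22.4, 24.6, and 19.6 in the Sting1 KO livers, and at 22.4, 21.8, and 21.6 in the DKO livers. The WT livers were highest and the Mcl1 KO livers lowest, while Sting1 KO and DKO livers lay together between them, and the term was 1.18 ± 0.22 (log2, SE). Prkar2a, a regulatory subunit of protein kinase A (chromosome 9, 108566513 to 108627641), lay at 67.5, 99.7, and 88 CPM in the WT livers, at 53.8, 43.97, and 45.8 in the Mcl1 KO livers, at 59.6, 64.3, and 60.8 in the Sting1 KO livers, and at 71.5, 74.2, and 78.9 in the DKO livers. Here the DKO livers lay above the Sting1 KO livers, opposite to the intact background, and the term was 1.11 ± 0.21 (log2, SE).

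Sntb1, an adaptor of the dystrophin-associated complex (chromosome 15, 55499784 to 55771046), lay at 82.6, 94.3, and 100.5 CPM in the WT livers, at 65.4, 49.9, and 61.8 in the Mcl1 KO livers, at 70.8, 83.3, and 77.8 in the Sting1 KO livers, and at 97.8, 114, and 98.2 in the DKO livers. It too was lower with the Mcl1 deletion on the intact background and higher on the null one, with a term of 1.07 ± 0.20 (log2, SE). Plcb1, a phospholipase C that generates inositol trisphosphate, lay at 20.9, 34.7, and 26.02 CPM in the WT livers, at 13.8, 9.61, and 12.7 in the Mcl1 KO livers, at 18.3, 21.4, and 17.1 in the Sting1 KO livers, and at 22.9, 24.3, and 19.7 in the DKO livers. Its DKO and Sting1 KO livers overlapped, and the term was 1.41 ± 0.28 (log2, SE). The terms of the ubiquitin ligase gene Rnf123, of Larp1b, which encodes a La-related RNA-binding protein, and of Zcchc2 were 1.10 ± 0.21, 1.09 ± 0.22, and 1.04 ± 0.22. Those of Zfand4 and of Tmem19 were 1.60 ± 0.31 and 1.49 ± 0.30.

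Without the 3 male livers, the terms of all 10 genes were smaller. For 9 of them the log2 term then lay between 0.82 and 1.12, and that of Tmem19 fell from 1.49 to 0.92. The term of Mup16 was 4.94, against 7.68 with all libraries. Mup16 encodes a major urinary protein, a family that is higher in males and whose near-identical copies can share reads. It lay at 26.2, 541, and 55.3 CPM in the WT livers, at 0.248, 0.245, and 1.23 in the Mcl1 KO livers, at 6.52, 13.2, and 8.903 in the Sting1 KO livers, and at 3.37, 2.02, and 10.3 in the DKO livers. Its highest livers were WT replicates 2 and 3, both male. WT replicate 1, without Y-linked expression, came next at 26.2 CPM, and DKO replicate 1, also male, lay at 3.37 CPM.

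The 10 genes with the lowest unadjusted p and a term below 0 were Prelid2, Plpp2, H2bc11, Igsf8, Mme, Scarna2, Slc41a3, Zap70, Hmox1, and Ckb. Of these, 9 lay higher in every Mcl1 KO liver than in every WT liver, with Mme the exception, and all 10 lay lower in every DKO liver than in every Mcl1 KO liver. Over all tested genes, 16.2% had the first pattern and 9.28% the second, and these genes too were picked for their p. Their edgeR adjusted p was again 0.216, and the DESeq2 adjusted p ran from 8.73e-08 for Prelid2 to 0.0069 for Ckb.

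Hmox1, heme oxygenase 1, which breaks down heme and is abundant in Kupffer cells (chromosome 8, 75820241 to 75827217), lay at 20.8, 13.8, and 24.8 CPM in the WT livers, at 103, 91.7, and 73.9 in the Mcl1 KO livers, at 23.02, 30.9, and 28.7 in the Sting1 KO livers, and at 53.4, 40.2, and 44.9 in the DKO livers. The Mcl1 deletion went with more Hmox1 on both backgrounds, by a log2 change of 2.18 ± 0.22 with Sting1 intact and 0.74 ± 0.21 without it, and the term was -1.43 ± 0.30 (log2, SE). It was -1.43 with the small structured RNA share as a covariate and -1.48 without the male livers. Plpp2, a lipid phosphate phosphatase (chromosome 10, 79362264 to 79369631), lay at 22.2, 18.4, and 19.6 CPM in the WT livers, at 44.7, 57.3, and 42.7 in the Mcl1 KO livers, at 27.9, 25.7, and 28.9 in the Sting1 KO livers, and at 31.6, 29.8, and 29.8 in the DKO livers. All 4 genotypes were separate, with WT lowest and Mcl1 KO highest, and the term was -1.12 ± 0.19 (log2, SE).

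Igsf8, an immunoglobulin superfamily membrane protein (chromosome 1, 172089208 to 172147409), lay at 9.999, 10.3, and 10.8 CPM in the WT livers, at 22.7, 22.4, and 19.1 in the Mcl1 KO livers, at 16.4, 13.6, and 14.9 in the Sting1 KO livers, and at 16.2, 16.2, and 14.1 in the DKO livers. The Sting1 KO livers already lay above WT, and DKO and Sting1 KO livers overlapped, with a term of -0.99 ± 0.17 (log2, SE). Ckb, the brain-type creatine kinase, lay at 7.73, 5.22, and 7.26 CPM in the WT livers, at 17.5, 16.7, and 15.02 in the Mcl1 KO livers, at 9.14, 8.86, and 9.46 in the Sting1 KO livers, and at 10.99, 11.6, and 11.1 in the DKO livers. Its DKO livers lay between Sting1 KO and Mcl1 KO livers, and the term was -0.99 ± 0.21 (log2, SE). Slc41a3, of a family of magnesium transporters, lay at 2.22, 1.93, and 1.58 CPM in the WT livers, at 8.503, 9.42, and 6.23 in the Mcl1 KO livers, at 3.52, 2.52, and 1.69 in the Sting1 KO livers, and at 2.67, 2.88, and 2.299 in the DKO livers. Levels in the Mcl1 KO livers stood above all others, the Sting1 KO livers overlapped both WT and DKO livers, and the term was -2.05 ± 0.38 (log2, SE).

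Prelid2, which encodes a PRELI-domain protein (chromosome 18, 42008648 to 42084468), lay at 0.818, 0.415, and 0.363 CPM in the WT livers, at 3.66, 7.098, and 5.16 in the Mcl1 KO livers, at 1.16, 1.83, and 1.52 in the Sting1 KO livers, and at 1.04, 1.36, and 0.602 in the DKO livers. It was high in Mcl1 KO livers alone, and its term of -3.88 ± 0.56 (log2, SE) had the lowest p of all genes with at least 1 CPM. Prelid2 lies 6.14 Mb from Sting1 on the same chromosome. Mme, the membrane metallopeptidase neprilysin (chromosome 3, 63148889 to 63293451), lay at 6.07, 1.36, and 13.4 CPM in the WT livers, at 23.6, 3.89, and 17.4 in the Mcl1 KO livers, at 46.9, 80.2, and 64.03 in the Sting1 KO livers, and at 2.84, 3.41, and 2.54 in the DKO livers. The Sting1 KO livers were the high ones, the Mcl1 KO and WT livers overlapped, and the term was -5.55 ± 1.002 (log2, SE). The log2 change with the Mcl1 deletion was 1.11 ± 0.67 on the intact background and -4.44 ± 0.76 on the null one.

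Zap70, a kinase of T cell receptor signaling, lay at 12.4, 9.699, and 9.87 CPM in the WT livers, at 20.8, 39.1, and 38.8 in the Mcl1 KO livers, at 14.1, 18.2, and 14.9 in the Sting1 KO livers, and at 15.1, 18.3, and 13.3 in the DKO livers. Its term was -1.64 ± 0.33 (log2, SE), and it was -0.98 with the small structured RNA share as a covariate. The T cell receptor chain gene Cd247 lay at 0.886 CPM or less in every liver, and whether Zap70 RNA came from T cells was not tested. Scarna2, a Cajal body RNA that guides modification of spliceosomal RNA, lay at 27.4, 22.96, and 34.8 CPM in the WT livers, at 47.6, 95.9, and 62.5 in the Mcl1 KO livers, at 34.6, 36.5, and 52.6 in the Sting1 KO livers, and at 27.6, 22.5, and 25.1 in the DKO livers. Mcl1 KO replicates 2 and 3 were highest, while replicate 1, at 47.6 CPM, lay below Sting1 KO replicate 3 at 52.6 CPM. The term was -1.99 ± 0.36 (log2, SE). The covariate, a share that includes Scarna2 itself, moved the term to -1.08.

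**Figure D4:**
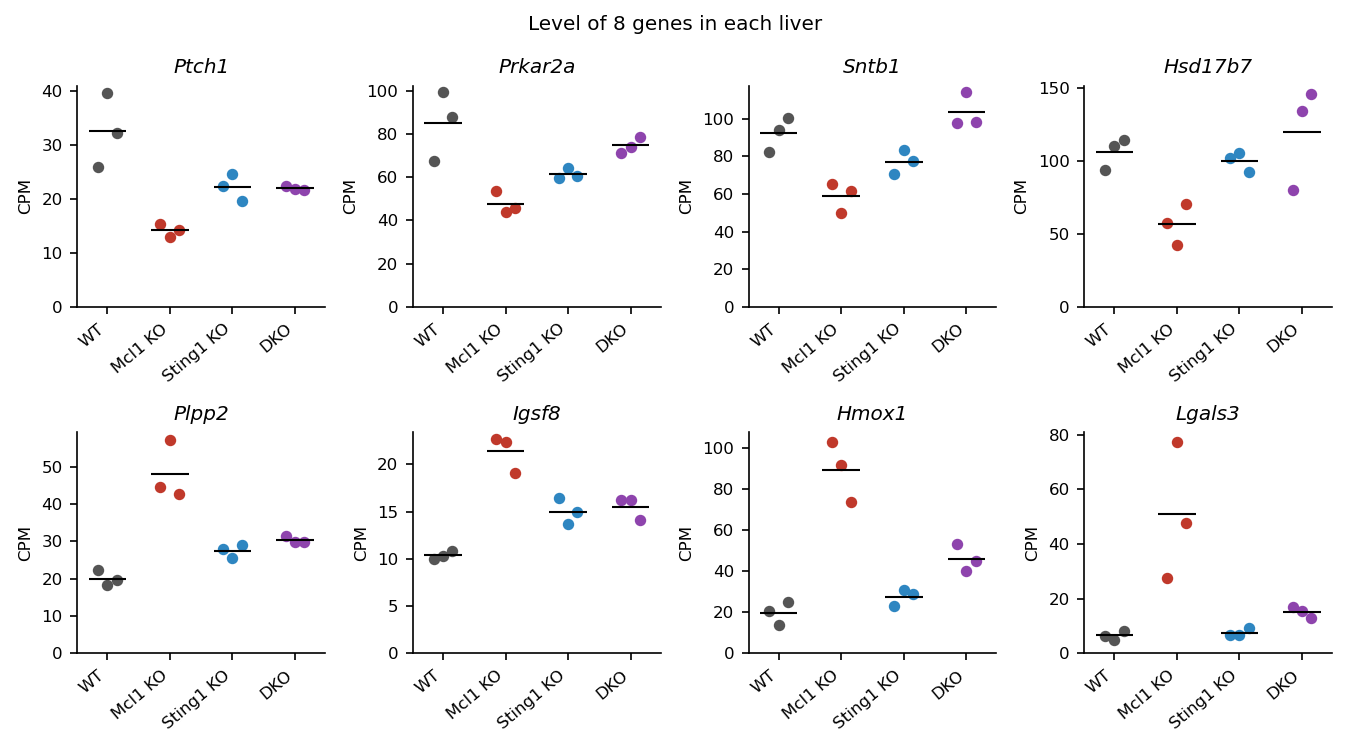
Level (CPM, y axis from 0) of 4 genes with a term above 0 (top) and 4 with a term below 0 (bottom) in each liver; points are livers and lines are group means. In every panel the Mcl1 KO livers lie apart from the DKO livers, while Lgals3 ranges from 27.6 to 77.2 CPM among the Mcl1 KO livers.

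The cGAS-STING pathway list and the lists of interferon response genes showed few members past an unadjusted p of 0.05. Of 18 tested pathway genes (sensor, adaptor, kinases, interferon regulatory factors, nucleases, and regulators), 1 had a term above 0 at that p and 0 below, with a median of -0.08 against -0.01 over all tested genes. In this and the following gene lists, a member is said to pass where its unadjusted p was under 0.05. No member of any list had an edgeR adjusted p under 0.05. A gene can pass the filter through its counts in a single genotype. In the main fit, 136 tested genes had a genotype with no liver above 3 counts. Among them were 1 chemokine ligand, 1 NF-kB response gene, and 2 replication-dependent histone genes of the lists below. Of all tested genes, 7.26% passed above 0 and 7.11% below with all libraries. These shares were 3.45% and 2.97% with the small structured RNA covariate, and 3.89% and 4.57% with the Y-linked covariate. Those without the male livers are given above. The pathway member that passed was Mb21d2, a relative of Cgas by sequence, with a term of 0.67 ± 0.24 (log2, SE, edgeR adjusted p = 0.294). It lay at 25.2, 26.5, and 23.2 CPM in the WT livers, at 15.7, 15.3, and 17.2 in the Mcl1 KO livers, at 17.9, 17.8, and 16.9 in the Sting1 KO livers, and at 21.4, 19.5, and 12.8 in the DKO livers. The Mcl1 KO livers lay below WT, and DKO and Sting1 KO livers overlapped. The member with the next lowest p was Sting1 itself.

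Of 44 interferon-stimulated genes, 1 had a term above 0 and 2 below at an unadjusted p under 0.05, shares under those of all genes. The list median was 0.19, and its direction turned in some fits. It was -0.39 without WT replicate 3, -0.0127 with the Y-linked level as a covariate, and -0.10 without the male livers, and with any other library left out it lay between 0.0337 and 0.41. Ifitm1, an interferon-induced membrane protein that restricts viral entry, lay at 6.17, 4.06, and 5.38 CPM in the WT livers, at 7.45, 10.9, and 9.42 in the Mcl1 KO livers, at 6.198, 5.89, and 6.25 in the Sting1 KO livers, and at 4.98, 6.34, and 6.43 in the DKO livers. It was highest in the Mcl1 KO livers, and its term was -0.87 ± 0.27 (log2, SE, edgeR adjusted p = 0.277). Herc6, a ubiquitin ligase of the interferon response, went the other way with a term of 0.82 ± 0.31 (log2, SE, edgeR adjusted p = 0.300). Of 19 interferon-inducible GTPases, 0 passed in either direction, with a median of 0.18 that was -0.0123 without WT replicate 3.

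For the genes by which interferon and chemokine activity in these livers is usually read, the terms did not pass. Ccl5, a chemokine for T cells, lay at 0.712, 0.593, and 1.16 CPM in the WT livers, at 1.34, 2.08, and 1.93 in the Mcl1 KO livers, at 0.786, 0.796, and 0.603 in the Sting1 KO livers, and at 1.14, 0.682, and 1.34 in the DKO livers. Every Mcl1 KO liver lay above the WT livers, while Mcl1 KO replicate 1 and DKO replicate 3 were level near 1.34 CPM. The term was -0.59 ± 0.48 (log2, SE, edgeR adjusted p = 0.578). Cxcl10, an interferon-induced chemokine, lay at 4.17, 1.36, and 8.09 CPM in the WT livers, at 11.9, 8.69, and 9.96 in the Mcl1 KO livers, at 2.79, 2.6, and 5.26 in the Sting1 KO livers, and at 5.04, 7.48, and 6.08 in the DKO livers. For Cxcl10 the Mcl1 KO livers were highest, the WT livers spanned a wide range, and the term was -0.37 ± 0.67 (log2, SE, edgeR adjusted p = 0.823).

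Ifi27l2a, an interferon-alpha inducible gene whose annotation overlaps Ifi27, lay at 7.89, 7, and 11.6 CPM in the WT livers, at 8.92, 23.8, and 28.8 in the Mcl1 KO livers, at 5.94, 6.02, and 10.3 in the Sting1 KO livers, and at 10.7, 9.63, and 8.62 in the DKO livers. Its levels were high in Mcl1 KO replicates 2 and 3 alone, the livers with the high small structured RNA share, and the term was -0.84 ± 0.52 (log2, SE, edgeR adjusted p = 0.466). With that share as a covariate it was 0.75, the opposite direction. Ifi27l2b, its neighbor of the same family, lay at 9.26, 3.83, and 8.72 CPM in the WT livers, at 21.3, 33.3, and 35.3 in the Mcl1 KO livers, at 5.995, 6.08, and 6.18 in the Sting1 KO livers, and at 26.7, 27.3, and 8.51 in the DKO livers. It was higher with the Mcl1 deletion on both backgrounds, and the term was -0.27 ± 0.57 (log2, SE, edgeR adjusted p = 0.853).

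Chemokines and NF-kB genes leaned below 0. Of 26 chemokine ligands, 4 had a term below 0 at an unadjusted p under 0.05 and 0 above, with a median of -0.65. Cxcl16, a ligand for CXCR6 on lymphocytes, lay at 10.5, 6.85, and 11.9 CPM in the WT livers, at 15.97, 29.1, and 21.2 in the Mcl1 KO livers, at 10.04, 11.2, and 11.2 in the Sting1 KO livers, and at 12.9, 12.7, and 11.9 in the DKO livers. Its Mcl1 KO livers lay above all others, and the term was -0.97 ± 0.32 (log2, SE, edgeR adjusted p = 0.281). Ccl6, a myeloid chemokine, lay at 8.94, 8.99, and 11.1 CPM in the WT livers, at 20.4, 57.2, and 28.8 in the Mcl1 KO livers, at 8.26, 9.26, and 10.8 in the Sting1 KO livers, and at 13.5, 19.7, and 15.3 in the DKO livers. The term of Ccl6 was -1.10 ± 0.43 (log2, SE, edgeR adjusted p = 0.312). With the small structured RNA share as a covariate the terms were -0.27 and 0.06, the list median was -0.10, and 0 members passed. When the male livers were left out 2 of 29 passed below 0 and 1 above, with a median of -0.74, and without WT replicate 2 the median was -0.42.

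Of 22 NF-kB response genes, 4 passed below 0 and 0 above, with a median of -0.29. Map3k8, a kinase of the inflammatory MAPK pathway, lay at 2.19, 1.63, and 2.41 CPM in the WT livers, at 3.91, 5.91, and 3.79 in the Mcl1 KO livers, at 2.53, 3.16, and 3.06 in the Sting1 KO livers, and at 3.14, 2.997, and 3.75 in the DKO livers. Nfkbie, an inhibitor of NF-kB that NF-kB itself induces, lay at 3.38, 3.32, and 3.5 CPM in the WT livers, at 5.28, 6.67, and 4.55 in the Mcl1 KO livers, at 3.201, 4.14, and 3.402 in the Sting1 KO livers, and at 3.88, 3.27, and 3.42 in the DKO livers. For both, the Mcl1 KO livers lay above the DKO livers, and the terms were -0.95 ± 0.33 for Map3k8 and -0.72 ± 0.26 for Nfkbie. In the fit with the small structured RNA covariate 1 of the 22 passed below 0, with a list median of -0.35. In that without the male livers 0 of 23 passed below 0 and 1 above, with a median of -0.45. With 1 library left out the median ran from -0.50 without WT replicate 3 to -0.16 without DKO replicate 3.

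Kupffer cells are the resident macrophages of the liver. Among 20 Kupffer cell genes, 5 had a term below 0 and 2 above at an unadjusted p under 0.05, with a median of -0.40 that was -0.24 without WT replicate 2. Given the small structured RNA covariate, 1 passed below 0 and 2 above, and without the male livers 4 below and 1 above. Hmox1 was the lowest by p of those below 0. Cd163, the scavenger receptor for hemoglobin and a marker of resident macrophages, lay at 9.73, 12.8, and 16.8 CPM in the WT livers, at 2.59, 3.396, and 3.38 in the Mcl1 KO livers, at 19.7, 12.6, and 15.6 in the Sting1 KO livers, and at 9.42, 9.04, and 15.98 in the DKO livers. It was low in the Mcl1 KO livers alone, and its term was 1.60 ± 0.38 (log2, SE, edgeR adjusted p = 0.233). With the small structured RNA covariate the term of Cd163 was 1.98, and without the male livers it was 1.30.

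Among 18 genes of lipid-associated macrophages, a state seen in injured and fatty liver, 6 passed below 0 and 0 above, with a median of -0.45. Together these genes took 2.14 to 2.25% of the counts in Mcl1 KO livers and 1.80 to 2.12% in WT livers. They took 2.08 to 2.29% in Sting1 KO livers and 1.93 to 2.06% in DKO livers. On the null background the summed share was thus lower with the Mcl1 deletion, while the median log2 change of the list was 0.91. Kupffer cell genes took at most 0.201% in Mcl1 KO livers. Which cells gave these counts was not tested. Lgals3, galectin 3, lay at 6.33, 4.95, and 8.19 CPM in the WT livers, at 27.6, 77.2, and 47.6 in the Mcl1 KO livers, at 6.61, 6.71, and 9.17 in the Sting1 KO livers, and at 17.1, 15.3, and 12.8 in the DKO livers. The Mcl1 KO livers were highest, the DKO livers came next, and the term was -1.96 ± 0.45 (log2, SE, edgeR adjusted p = 0.226). Capg, an actin-capping protein of macrophages, lay at 2.98, 2.67, and 4.06 CPM in the WT livers, at 10.4, 24.97, and 19.4 in the Mcl1 KO livers, at 3.32, 4.43, and 4.25 in the Sting1 KO livers, and at 8.22, 8.7, and 7.09 in the DKO livers. Its term was -1.50 ± 0.40 (log2, SE, edgeR adjusted p = 0.255). In both genes Mcl1 KO replicates 2 and 3 exceeded replicate 1, and with the small structured RNA covariate the terms were -0.66 and -0.39 and 1 of the 18 genes passed. Of the 18, 4 passed without the male livers, all below 0, with a median of -0.56, and without WT replicate 3 the median was -0.70.

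Monocyte, neutrophil, and T and NK cell genes had medians further below 0, while 14 B and plasma cell genes had a median of -0.19 with 1 passing above 0 and 0 below. Of 16 monocyte genes 8 passed below 0 and 0 above, with a median of -1.06. Of 18 listed neutrophil genes 10 were tested and 4 passed below 0, with a median of -1.39. Of 20 T and NK cell genes 6 passed below 0, with a median of -1.03. With the small structured RNA covariate the medians were -0.43, -0.97, and -0.29, and 1, 1, and 0 genes passed. Without the male livers the medians were -1.23, -1.42, and -1.06, over 16, 14, and 22 tested genes. The neutrophil and the T and NK cell lists gained members there through the rerun filter, so these medians are not over the same genes. Without Sting1 KO replicate 3 the neutrophil median was -0.86. The filter can keep a gene for its counts in a single genotype. Of the 10 tested neutrophil genes, 2 had a genotype with no liver above 3 counts, so the neutrophil values describe these members and do not support the term. As a summed share, the monocyte genes took 0.1055 to 0.183% of the counts in Mcl1 KO livers, not above the 0.151 to 0.187% in WT livers.

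Plac8, a gene of inflammatory monocytes, lay at 8.13, 5.63, and 9.15 CPM in the WT livers, at 14.8, 37.6, and 22.01 in the Mcl1 KO livers, at 8.21, 6.899, and 10.1 in the Sting1 KO livers, and at 9.89, 10.2, and 9.99 in the DKO livers. The Mcl1 KO livers lay above all others, and the term was -1.45 ± 0.42 (log2, SE, edgeR adjusted p = 0.260). S100a9, a calcium-binding protein of neutrophils and monocytes, lay at 0.791, 1.22, and 1.35 CPM in the WT livers, at 3.54, 10.9, and 3.92 in the Mcl1 KO livers, at 0.582, 1.33, and 2.41 in the Sting1 KO livers, and at 1.604, 1.85, and 1.31 in the DKO livers. The highest value was in Mcl1 KO replicate 2, and the term was -2.32 ± 0.73 (log2, SE, edgeR adjusted p = 0.277). Camp, the cathelicidin of neutrophil granules, lay at 0.386 CPM or less in every liver and at 0 counts in 2 WT livers, which allows up to 3 counts each, so that no fold is given. Klrb1c, an NK cell receptor, and Cd247, a signaling chain of the T cell receptor, had terms of -1.70 ± 0.54 and -1.90 ± 0.65. Their levels were at most 1.81 and 0.886 CPM.

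Replication-dependent histone genes encode the core and linker histones that package newly made DNA, and their transcripts lack a poly(A) tail, so that total RNA libraries capture them. Of 58 tested members, 41 had a term below 0 and 1 above at an unadjusted p under 0.05, with a median of -1.22. H2bc11, an H2B gene (chromosome 13, 22227384 to 22227846), lay at 0.818, 0.593, and 0.495 CPM in the WT livers, at 4.45, 4.498, and 4.902 in the Mcl1 KO livers, at 1.14, 1.17, and 1.64 in the Sting1 KO livers, and at 2.61, 2.66, and 2.24 in the DKO livers. The 4 genotypes were separate, from WT through Sting1 KO and DKO to Mcl1 KO, and the term was -1.92 ± 0.33 (log2, SE). H4c14, an H4 gene, lay at 5.07, 4.805, and 6.97 CPM in the WT livers, at 8.83, 22.5, and 18.7 in the Mcl1 KO livers, at 9.11, 7.85, and 7.41 in the Sting1 KO livers, and at 6.62, 7.21, and 4.27 in the DKO livers. Here DKO livers lay below Sting1 KO livers, and the term was -1.996 ± 0.44 (log2, SE).

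Histones took 0.0614, 0.120, and 0.101% of the counts in Mcl1 KO replicates 1, 2, and 3, 0.0365 to 0.0534% in DKO livers, 0.0340 to 0.0454% in Sting1 KO livers, and 0.0359 to 0.0408% in WT livers. Without the male livers, 27 of the 58 had a term below 0 at that p, and the median was -1.20. With the small structured RNA share as a covariate, 11 did, against 2.97% of all genes, and the median was -0.68. The term of H2bc11 was -1.87 with the covariate and that of H4c14 was -0.89. DESeq2 called 12 of the 58, all below 0, where it called 0.446% of all genes below 0. Without Mcl1 KO replicate 1 edgeR called 28 of them, all below 0, where it called 4.22% of all genes below 0.

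Small structured RNAs, which guide RNA modification and serve splicing and RNA processing, had a median of -1.99 over 71 tested genes of 171 listed. Of the 71, 32 lay below 0 at an unadjusted p under 0.05 and 0 above, and 4 had a genotype with no liver above 3 counts. Counts in a single genotype can be enough for the filter, so these values describe the members and do not support the term. Rpph1, the RNA subunit of ribonuclease P, lay at 1350, 1415, and 2649 CPM in the WT livers, at 2034, 13920, and 8883 in the Mcl1 KO livers, at 3186, 3747, and 7268 in the Sting1 KO livers, and at 3053, 2640, and 2840 in the DKO livers. Mcl1 KO replicate 1 lay below the Sting1 KO and DKO livers, replicates 2 and 3 were the highest of all, and the term was -2.93 ± 0.77 (log2, SE, edgeR adjusted p = 0.253). With the share of that same RNA class as a covariate the list median was 0.47, a move that the fit built in. When males were left out, the rerun filter kept 82 genes, and their median was -2.95.

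Division genes had large changes with the Mcl1 deletion on both backgrounds. The median log2 change of 40 mitosis genes was 3.36 with Sting1 intact and 2.66 on the null background, and the median term was -0.62 with 2 genes below 0 at an unadjusted p under 0.05 and 0 above. Cdk1, the kinase that drives entry into mitosis, lay at 1.24, 1.16, and 1.68 CPM in the WT livers, at 14.2, 18.2, and 11.5 in the Mcl1 KO livers, at 2.53, 1.59, and 2.41 in the Sting1 KO livers, and at 16, 11.6, and 5.88 in the DKO livers. All DKO livers lay above all Sting1 KO livers, DKO replicate 3 was the lowest of the livers without Mcl1, and the term was -1.08 ± 0.47 (log2, SE, edgeR adjusted p = 0.340). With the Y-linked level as a covariate, 12 of the 40 passed below 0, against 4.57% of all genes, with a median of -1.36. When males were left out, 5 did, with a median of -1.04. With 1 library left out the median ran from -1.37 without DKO replicate 1 to -0.19 without Mcl1 KO replicate 1.

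Ncapd2, a condensin subunit, had the lowest p of the mitosis list and lay at 11.1, 16.4, and 33.1 CPM in the WT livers, at 35.2, 396, and 277 in the Mcl1 KO livers, at 70.5, 79.5, and 92.1 in the Sting1 KO livers, and at 143, 117, and 129 in the DKO livers. Its annotation overlaps Scarna10, a small structured RNA, and its level followed that share in the Mcl1 KO livers. The term was -2.87 ± 0.89 (log2, SE, edgeR adjusted p = 0.277), and with the covariate it was 0.42, the opposite direction. Over 39 DNA replication genes the median term was -0.07, and 0.12 without DKO replicate 3, with 1 gene below 0 at an unadjusted p under 0.05 and 0 above.

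Immediate early genes, which respond within minutes to growth factors and stress, had 7 of 29 members below 0 and 0 above at an unadjusted p under 0.05, with a median of -0.64. The number was 8 with the small structured RNA covariate, with a median of -0.79, and 1 of 30 without the male livers, with a median of -0.81. Atf3, a stress-induced transcription factor, lay at 2.37, 0.949, and 2.28 CPM in the WT livers, at 14.7, 13.3, and 14.01 in the Mcl1 KO livers, at 5.296, 2.76, and 2.65 in the Sting1 KO livers, and at 12.1, 8.87, and 4.05 in the DKO livers. Its Mcl1 KO livers were close to each other and above the DKO livers, and the term was -1.68 ± 0.58 (log2, SE, edgeR adjusted p = 0.292). Nr4a1, a nuclear receptor induced early by many stimuli and a marker of patrolling monocytes, lay at 0.343, 0.356, and 0.528 CPM in the WT livers, at 5.86, 1.87, and 2.02 in the Mcl1 KO livers, at 4.02, 3.503, and 0.676 in the Sting1 KO livers, and at 1.503, 3.75, and 1.18 in the DKO livers. The DKO livers overlapped both the Mcl1 KO and the Sting1 KO livers, and the term was -3.34 ± 0.96 (log2, SE, edgeR adjusted p = 0.260).

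Lipid synthesis leaned above 0. Of 24 lipogenesis genes 5 had a term above 0 and 0 below at an unadjusted p under 0.05, with a median of 0.56, and of 26 sterol synthesis genes 6 had a term above 0 and 0 below, with a median of 0.60. The median log2 change with the Mcl1 deletion was -1.02 for lipogenesis and -0.63 for sterol synthesis on the intact background, and -0.13 and -0.04 on the null background. Without the male livers, 9 of 24 and 6 of 26 passed above 0, with medians of 1.18 and 0.71. In the fit with the small structured RNA covariate, where 3.45% of all genes passed above 0, 1 lipogenesis gene passed above 0 and 2 below with a median of 0.49, and 5 sterol genes passed above 0 with a median of 0.75. Without DKO replicate 2 the medians were 0.34 for both lists, and without DKO replicate 1 that of lipogenesis was 0.85.

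Gpam, which catalyzes the first step of triglyceride synthesis, lay at 423, 535, and 517 CPM in the WT livers, at 302, 154, and 199 in the Mcl1 KO livers, at 408, 466, and 383 in the Sting1 KO livers, and at 425, 578, and 334 in the DKO livers. The Mcl1 KO livers lay below all others, and the term was 1.26 ± 0.36 (log2, SE, edgeR adjusted p = 0.259). Elovl6, an elongase of fatty acids, lay at 422, 162, and 172 CPM in the WT livers, at 78.5, 57.5, and 88.4 in the Mcl1 KO livers, at 328, 110, and 214 in the Sting1 KO livers, and at 87.3, 284, and 268 in the DKO livers. DKO replicate 1, a male, lay near the Mcl1 KO livers, and the term was 1.72 ± 0.71 (log2, SE, edgeR adjusted p = 0.322), against 2.84 without the male livers. Hsd17b7, an enzyme of cholesterol synthesis, lay at 93.8, 110.3, and 114 CPM in the WT livers, at 57.1, 42.2, and 70.5 in the Mcl1 KO livers, at 102, 105, and 91.97 in the Sting1 KO livers, and at 79.7, 134, and 146 in the DKO livers. It was lowest in the Mcl1 KO livers, and its term was 1.17 ± 0.32 (log2, SE, edgeR adjusted p = 0.255).

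Fdps, which makes farnesyl diphosphate, lay at 339, 360.3, and 554 CPM in the WT livers, at 113, 127, and 241 in the Mcl1 KO livers, at 342, 264, and 217 in the Sting1 KO livers, and at 197, 394, and 257 in the DKO livers. The DKO livers overlapped those of the other genotypes, and its term was 1.42 ± 0.47 (log2, SE, edgeR adjusted p = 0.287). Of 26 pericentral hepatocyte genes, 3 passed above 0, where 7.26% of all tested genes did, and 0 below, with a median of 0.37. The median was 0.0636 without Mcl1 KO replicate 2, 0.19 without DKO replicate 3 or WT replicate 1, 0.66 without DKO replicate 1, 0.89 without Mcl1 KO replicate 3, and 0.85 without the male livers. Aldh1a1, a retinaldehyde dehydrogenase, lay at 922, 1338, and 1455 CPM in the WT livers, at 428, 353, and 1010 in the Mcl1 KO livers, at 883, 931, and 694 in the Sting1 KO livers, and at 871, 1047, and 1209 in the DKO livers. Mcl1 KO replicate 3 overlapped the DKO and WT livers, and the term was 1.37 ± 0.48 (log2, SE, edgeR adjusted p = 0.294). Znrf3, a ubiquitin ligase that dampens Wnt signaling, lay at 18.8, 14.6, and 15.3 CPM in the WT livers, at 11.03, 7.86, and 8.47 in the Mcl1 KO livers, at 18.6, 19.4, and 16.6 in the Sting1 KO livers, and at 12.3, 18.3, and 18.3 in the DKO livers. It lay lowest in the Mcl1 KO livers, with a term of 0.67 ± 0.26 (log2, SE, edgeR adjusted p = 0.308).

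**Figure D5:**
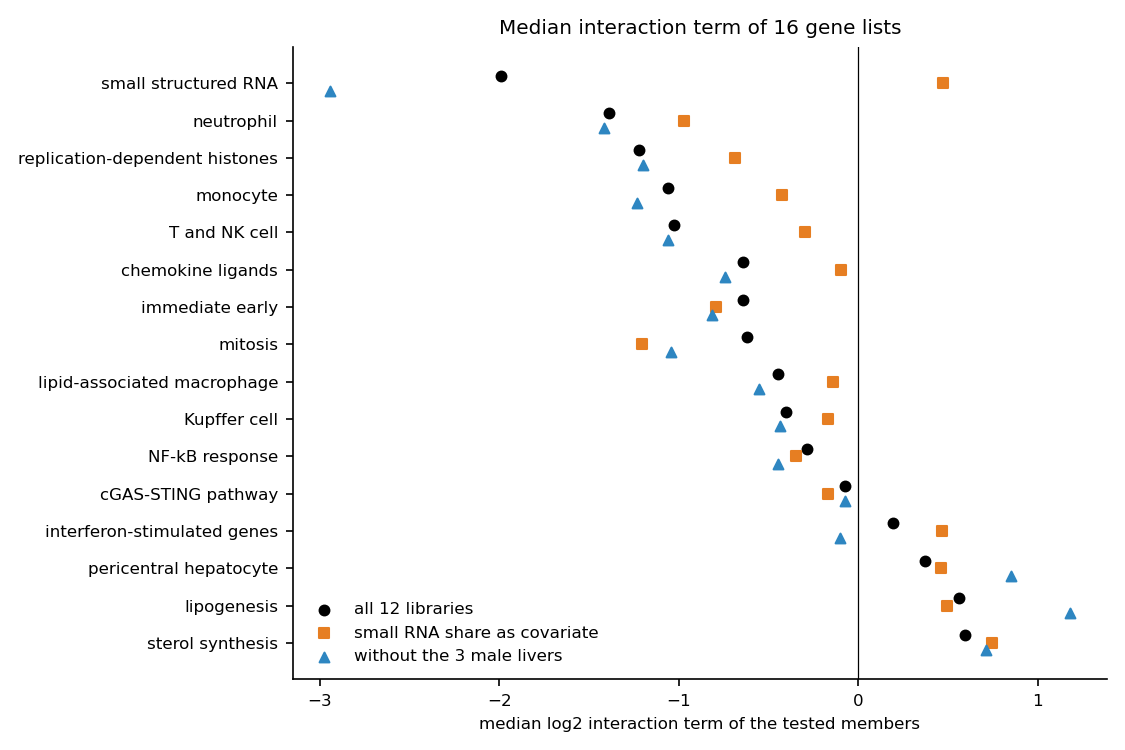
Median log2 interaction term (x axis) of the tested members of 16 gene lists (y axis) with all 12 libraries, with the share of small structured RNA as a covariate, and without the 3 male livers. The medians of the immune cell lists shown, from -0.40 for Kupffer cells to -1.39 for neutrophils, lie closer to 0 with the covariate, while lipogenesis moves from 0.56 to 1.18 without the male livers.

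Male-biased liver genes took their largest shares of the counts in the male livers. All 27 male-biased genes had a term above 0 at an unadjusted p under 0.05, and 7 did so with the Y-linked level as a covariate, against 3.89% of all genes, and 2 without the male livers, against 2.18%. Cyp4a12a, a cytochrome P450 of male liver with a near-identical neighbor, lay at 0, 142, and 171 CPM in the WT livers, at 0.352, 0.184, and 0.822 in the Mcl1 KO livers, at 0.0291, 0.0796, and 0.169 in the Sting1 KO livers, and at 92.6, 0.195, and 8.401 in the DKO livers. It was abundant only in the male livers, with 8.40 CPM in DKO replicate 3, and no fold is given because the other groups lay near 0. The list median was 6.38 with all libraries and 0.68 without the male livers.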

How the data were processed

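The 12 libraries came from mouse livers of 4 genotypes, 3 per genotype. For each library the authors deposited a table of unnormalized integer read counts by Ensembl identifier. The submitters' processing notes name STAR, featureCounts, and GRCm39, and their versions, the annotation release, and the use of strand are not given in the sources used here, so reads of overlapping genes may be split either way. The labels and the study's methods name different RNeasy kits. Symbols and positions came from GENCODE mouse release 39 (GRCm39), which held 39533 of the 40551 identifiers.

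The interaction contrast was tested with edgeR 4.0.16 (glmQLFit and glmQLFTest, TMM factors, filterByExpr by genotype, no covariates) in R 4.3.3, with Benjamini-Hochberg adjustment over all 15070 tested genes and a threshold of 0.05. The common dispersion was 0.0699. Standard errors were the log2 term divided by the square root of F. CPM used totals multiplied by the TMM factors, the unscaled totals ran from 28826367 to 45266387 counts, and precision is set mainly by 3 livers per group. Alternatives were DESeq2 1.42.0, limma 3.58.1 voom with sample quality weights, other scalings and filters, covariates, the replicate number as a block, and omission of single libraries. The fits without the 3 male livers were added after the data were seen. Libraries of a genotype were not duplicates, since their chi-square per degree of freedom was 41.5 to 295.

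Genes named were Mcl1, Sting1, Cgas, Ccl5, Cxcl10, Ifi27l2a, and Ifi27l2b, the 10 genes in each direction with the lowest unadjusted p at a mean of at least 1 CPM, and the 2 members with the lowest p of each of 17 gene lists described by member. The comparison and the 47 gene lists were chosen with earlier results of these data known, and the 17 were picked from the 47 after their values were seen. No set test was run. Fold changes are on the log2 scale.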

Additional observations from a re-analysis of the deposited data

How the results depend on the processing

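Of the results for all genes, the ratio of the sizes of the Mcl1 effect was 0.51 in the main fit. It was 0.45 with voom, 0.60 with the small structured RNA share as a covariate, and 0.42 to 0.59 with 1 library left out. Its leave-one-out error of 0.16 was computed from those same runs, so it is no check on them. The number of lists with a median beyond 0.5 was 15, and it was 11 to 22 in the alternatives and 11 to 18 with 1 library left out. The number of called genes was 0 with DESeq2 size factors, library totals, other filters, either covariate, and the replicate block, 172 with DESeq2, 540 with voom, and from 0 to 1574 with 1 library left out. Without the 3 male livers it was 0, with or without the small structured RNA covariate. The number with an unadjusted p under 0.05, 2165 with all libraries, was 3965 with voom, 1274 with the Y-linked level and 967 with the small structured RNA share as a covariate, 866 without the male livers, 642 without them and with that share, and from 1369 to 4268 with 1 library left out. Scaling to library totals moved the median term of all genes to -0.10 and the split of these genes to 760 above and 1374 below 0. The causes were not tested.

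Some named terms changed direction. Mcl1 was 0.0143 with the Y-linked level, 0.0058 with the small structured RNA share, 0.0223 with that share and without the male livers, from -0.22 to 0.0285 with 1 library left out, and 10.2 CPM on the linear scale. Cxcl10 was from -1.07 to 0.0673 with 1 library left out, above 0 without Sting1 KO replicate 3 or WT replicate 2. With the small structured RNA share, Ifi27l2a was 0.75, Ifi27l2b 0.40, Ccl6 0.0583, and Ncapd2 0.42, and with that share and without the male livers they were 0.80, 0.59, 0.33, and 0.12. Ifi27l2b was from -0.51 to 0.12 with 1 library left out, above 0 without DKO replicate 3 or WT replicate 2. Cyp4a12a was -1.65 without the male livers and -1.42 with the share as well.

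With the replicate number as a block, 0 genes were called and 2025 had an unadjusted p under 0.05. Of 18 correlations across genotypes between libraries with the same number, 3 were over 0.1, with a median of -0.0191 and a lowest value of -0.54. Between libraries with different numbers, 7 of 36 were over 0.1, with a median of 0.0057. With 3 livers per group these values cannot decide whether numbers link mice. The depth of the libraries leaves genes near 0 counts without a usable term.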

Other observations

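Other gene lists gave the following values at an unadjusted p under 0.05, with no list called by the test of single genes. Of all tested genes, 7.26% lay above 0 and 7.11% below at that p with all libraries. Of 20 circadian clock genes, 4 had a term above 0 and 0 below with a median of 0.37, and the count was 4 with the Y-linked covariate and 3 without the male livers, with medians of 0.78 and 0.54. With 1 library left out that median ran from 0.16 without DKO replicate 3 to 0.62 without Mcl1 KO replicate 3. Of 28 bile acid genes, 6 lay above 0 and 1 below with a median of 0.36, and 1 above and 0 below without the male livers. Of 63 cytochrome P450 genes, 10 lay above 0 and 1 below, and 3 above without the male livers. The bile acid median was 0.21 without Mcl1 KO replicate 2. Of 27 collagen and stellate cell genes, 5 lay below 0 and 0 above with a median of -0.32, and the count was 3 with the small structured RNA covariate and 3 without the male livers, with medians of -0.58 and -0.14. With 1 library left out that median ran from -0.75 without WT replicate 1 to -0.0991 without WT replicate 3.

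Genes of the translation and respiration machinery had terms mostly below 0 among members with an unadjusted p under 0.05. Of 83 ribosomal protein genes, 17 lay below 0 and 1 above with a median of -0.46, and of 86 respiratory chain genes 15 lay below 0 and 1 above with a median of -0.37. With the small structured RNA share as a covariate the medians were 0.17 and 0.15, and 0 of either list lay below 0 at that p. Without Mcl1 KO replicate 1, edgeR called 28 ribosomal protein and 35 respiratory chain genes below 0 and 1 of each list above, where it called 4.22% of all genes below 0 and 6.03% above. Without the male livers 1 and 2 genes of these lists lay below 0 at an unadjusted p under 0.05. Without Mcl1 KO replicate 2 the ribosomal protein median was -0.27. Of 14 B and plasma cell genes, 0 lay below 0 at that p and 1 above with all libraries, and 6 below without the male livers. Their median was -0.19 with all libraries, and it ran from -0.62 without WT replicate 2 to 0.15 without WT replicate 1.

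After the value of Prelid2 was seen, the genes within 10 Mb of Sting1 on chromosome 18 were counted. Of 144 tested, 9 had a term above 0 and 14 below at an unadjusted p under 0.05, with a median of -0.10, where the shares over all tested genes were 7.26% and 7.11%.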
